A study of Bos taurus with 4 samples.

Results

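The nuclear genes for the subunits of respiratory complexes II, III, IV and V were described in blastocysts that had grown from vitrified or from slow-frozen bovine morulae. Members were all array probes whose platform symbol was SDHA, SDHB, SDHC, SDHD or CYC1, or began with UQCR, COX4 to COX8 or ATP5 followed by the name of a subunit. This gave 67 of the 43794 probes, for 43 of the 15229 genes that had a symbol. Complex II had 4 genes with 8 probes, complex III 8 genes with 10 probes, complex IV 15 genes with 23 probes and complex V 16 genes with 26 probes. The names are those of the array's design: COX4 is now COX4I1, UQCR is now UQCR11 and the ATP5 genes have since been renamed. COX4NB, which carries the name of its neighbour COX4 and encodes no subunit, was left out. ATP5S, now DMAC2L, and COX7A2L carry the names of subunits and were kept.

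The embryos were produced in vitro from cattle oocytes. The vitrified group came from morulae cooled very fast on a thin film carrier in ethylene glycol, DMSO and sucrose. The slow-frozen group came from morulae cooled slowly in straws with glycerol. After warming, morulae of both groups were cultured, and expanded blastocysts were pooled. The labels give 7 embryos per pool and day 7. The methods allow fewer per pool and place the collection of morulae at that day, with the blastocysts collected after further culture. There were 4 pools in each group, and their RNA was amplified, labelled with Cy5 (pools 1 and 2 of each group) or Cy3 (pools 3 and 4) and hybridised to a custom bovine embryo array. All pools thus held only embryos that survived cryopreservation and went on to expand. By the methods the vitrified pools lay on one slide and the slow-frozen pools on another, each beside unfrozen controls. Slide and treatment thus cannot be told apart, and the authors compared these groups with each other in silico. The labels and methods describe the pools as separate, with 1 tube per treatment from each production cycle, and unfrozen controls were not analysed here. In such pools, fewer cells of a type and less RNA per cell cannot be told apart.

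In the inner mitochondrial membrane, complex II (succinate dehydrogenase) oxidises the succinate of the tricarboxylic acid cycle and passes its electrons to ubiquinone. Complex III takes electrons from the reduced quinone to cytochrome c, and complex IV (cytochrome c oxidase) takes them on to oxygen. Complexes III and IV pump protons, and complex V (ATP synthase) lets the protons flow back to make ATP. Complex II is built from nuclear genes alone, while the other complexes also have subunits encoded in mitochondrial DNA, which were not among the members. The blastocyst relies more on this machinery than earlier cleavage stages do, since its outer layer, the trophectoderm, pumps sodium to fill the cavity.

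Median raw intensity ranged from 109 to 153 in the vitrified Cy5 pools and from 246 to 384 in the vitrified Cy3 pools, against 124 to 169 and 222 to 232 in the slow-frozen pools of the same dyes. The share of all probes with a raw signal over the negative controls was 63.3% to 74.1%. Vitrified pool 3 and slow-frozen pool 2 stood apart on the first principal component, which held 24.8% of the variance. Markers of the blastocyst's cell types were present: 12 of 12 trophectoderm genes and 6 of 6 inner cell mass genes were above the negative controls in every pool. The summed intensity of the trophectoderm genes was 139505 to 170291 in vitrified pools and 181608 to 206715 in slow-frozen pools, ranges that do not overlap, with a median log2 difference of -0.32. That of the inner cell mass genes was 20352 to 30875 in vitrified pools and 18641 to 20939 in slow-frozen pools, with a median difference of 0.49. For 5 hypoblast genes the sums were 7676 to 13076 in vitrified pools and 2690 to 13112 in slow-frozen pools. The 4 that were kept all had positive values, with a median difference of 0.34. Of 8 cumulus or granulosa cell genes 6 were kept and 3 (STAR, CYP19A1 and INHBA) were above the negative controls in every pool, AMH was above them in 0 pools and HAS2 in 1, and the list had a median difference of -0.098. They summed to 2097 to 2513 in vitrified pools and 2219 to 2827 in slow-frozen pools. Of 6 blood cell genes 5 were above the negative controls in every pool, with a median difference of -0.20 and sums of 1808 to 2647 in vitrified pools and 1682 to 2748 in slow-frozen pools. Of 3 sperm genes, PRM1 was above the negative controls in 4 vitrified and 2 slow-frozen pools (difference 0.39). PRM1 was thus kept through the vitrified pools only, and its difference is no test of the groups. Its means were 7.66 in vitrified and 7.27 in slow-frozen pools, near the 7.08 and 7.13 of PRM2, which was above the controls in 0 pools. TNP1 was above them in 4 vitrified and 3 slow-frozen pools (difference 0.75, unadjusted p = 0.0188). The sums of the 3 sperm genes were 525 to 839 in vitrified pools and 434 to 498 in slow-frozen pools, ranges that do not overlap. The median difference of the 2 kept was 0.57, and both this and the sums include PRM1. The part of these cell markers in the results below was not tested.

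Of the 67 member probes, 65 were kept as above the negative controls in at least 3 pools of a group, and 62 were above them in all 8 pools. No member was kept through 1 group only and 0 were saturated. The 65 probes measured 41 genes, each represented by its brightest probe on the log2 scale of normalised intensity. The 2 genes not measured were COX6A2 and COX7A1, the heart and skeletal muscle forms of complex IV subunits. Each was above the negative controls in 0 of 8 pools, so no fold was computed.

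No member gene differed between the groups after adjustment. With limma and Benjamini-Hochberg adjustment over the 30034 kept probes, 0 of the 41 genes and 0 of the 65 probes passed (lowest adjusted p = 0.940 for the genes and 0.864 for the probes). Over all kept probes 1, or 0.00333%, passed, and over the 11728 kept genes 0, or 0%, passed. At an unadjusted p under 0.05, 2 of 41 member genes had a higher value in vitrified pools, COX7A2 and UQCRB, and 0 had a lower one. Over all genes 2.96% were higher and 3.02% lower at this limit, 5.98% in both directions, so the members' count was near the background. Of the 65 member probes 3 were higher and 0 lower, against 2.45% higher and 2.38% lower of all probes, or 4.83% in both directions. Leaving out 1 pool moved the members' count between 0 (without slow-frozen pool 3) and 5 (without slow-frozen pool 1). The share of all probes at this limit was then 2.91% to 5.97%. The members' count was 1 (COX7A2) without slow-frozen pool 2, slow-frozen pool 4 or vitrified pool 2, and 3, all higher, without vitrified pool 1. It was 2 without vitrified pool 3 (UQCRC2 and COX7A2, both higher) and 2 without vitrified pool 4 (COX7A2 higher and UQCR lower). Without both pools that stood apart the members' count was 0, with 4.42% of all probes at this limit.

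The differences were small on both sides. On the log2 scale, vitrified minus slow-frozen, they ran from -0.41 for COX8A to 0.51 for COX7A2, and 0 genes reached a fold of 2. A fold of 2 with an unadjusted p under 0.05 was reached by 0.281% of all genes and 0.186% of all probes. The 95% interval of the difference lay within a fold of 2 in either direction for all 41 genes and all 65 probes, against 95.3% of all genes and 96.3% of all probes. The lowest bound was -0.95 and the highest 0.91 over the genes. A difference of more than 2-fold thus lay outside the interval of every measured gene, while smaller ones were not resolved by 4 pools a group: the median residual SD was 0.26 for member genes and 0.25 for all genes.

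Of the 41 genes, 30 had a positive difference (73.2%), against 52.3% of all genes, and 51 of the 65 probes did (78.5%), against 51.4% of all probes. The median difference was 0.10 for the member genes and 0.0094 for all genes. It was 0.012 for the 707 genes outside the 4 complexes whose level was at least 13, the lower quartile of the members. Within the Cy5 pools the members' median was 0.072, with 26 positive genes, and within the Cy3 pools 0.17, with 24. It was 0.17 without slow-frozen pool 1 (29 positive genes) and 0.057 without slow-frozen pool 4 (24). Without both pools that stood apart it was 0.069, with 26 positive genes. Median centring of the channels in place of both loess and quantile normalisation gave 0.18, with 35 positive genes. The median over all probes was then 0.039. Scaling across files only the average of both channels (Aquantile) gave 0.061, with 27 positive genes. The deposited table of log2 ratios gave 0.064, with 26.

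**Figure D1:**
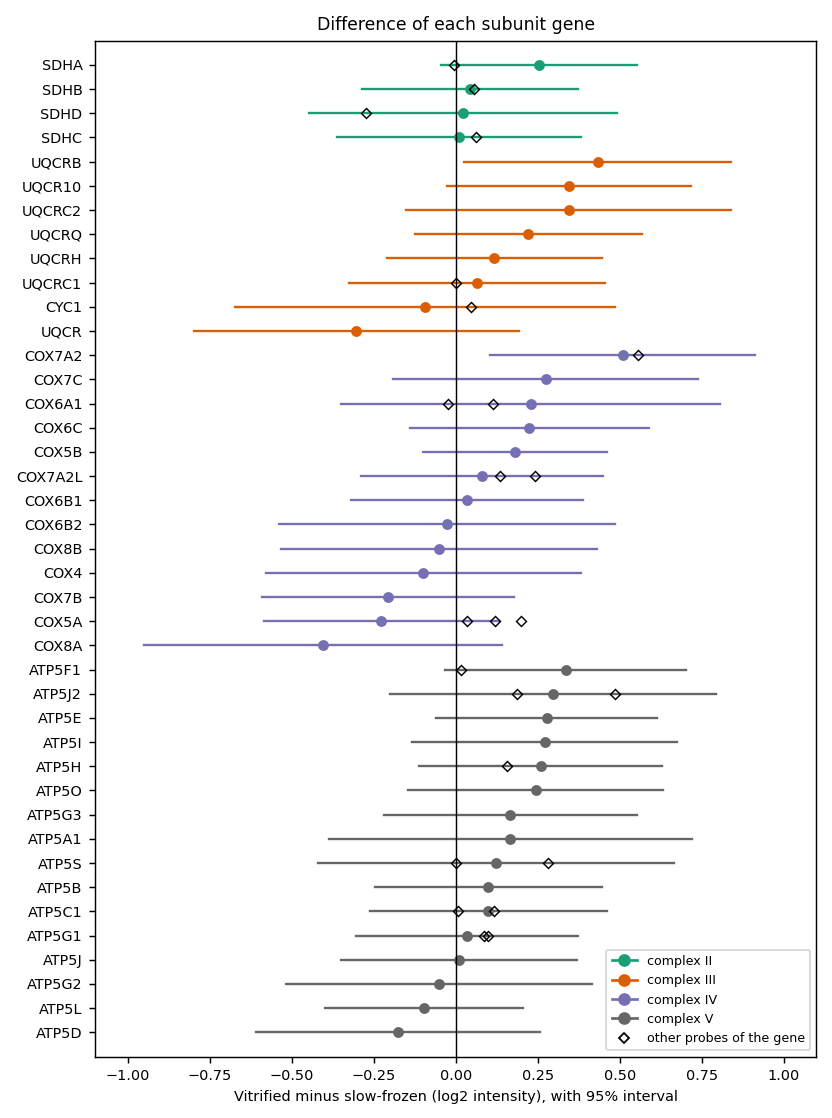
Difference between vitrified and slow-frozen pools (log2 intensity, horizontal axis) for the 41 measured genes, ordered by complex and difference. Filled points are the brightest probe with its 95% interval and open diamonds are the other kept probes of the gene; 30 filled points lie above 0, the intervals of UQCRB and COX7A2 do not reach 0, and none reaches -1 or 1.

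Complex II had a median difference of 0.033, and 0 of its 4 genes had an unadjusted p under 0.05. All 4 values were positive with the brightest probe. The median was 0.25 within the Cy5 pools and -0.11 within the Cy3 pools. SDHA, the flavoprotein that oxidises succinate, had the largest difference in the complex. Its brightest probe, EMBV3_32498, read 13.40, 13.46, 13.62 and 13.45 in vitrified pools 1 to 4, against 13.07, 13.27, 13.15 and 13.43 in slow-frozen pools 1 to 4. Only vitrified pool 1 lay below slow-frozen pool 4, the highest of its group. The difference was 0.25 ± 0.14 (SE; unadjusted p = 0.0884, adjusted p = 1.00). The dimmer SDHA probe, EMBV3_03242, had a difference of -0.0050 ± 0.23, with slow-frozen pool 4 far below the other pools of its group.

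SDHB, the iron-sulphur subunit that carries the electrons onward, averaged 14.21 ± 0.19 in vitrified pools and 14.16 ± 0.13 in slow-frozen pools (SD, n = 4 each). Its difference was 0.045 ± 0.15 with an interval of -0.29 to 0.37, and the second probe gave 0.056. The value for SDHB was -0.17 within the Cy3 pools. SDHC and SDHD anchor the enzyme in the membrane and hold the quinone site. SDHC averaged 12.89 ± 0.17 in vitrified pools and 12.88 ± 0.26 in slow-frozen pools, with differences of 0.010 and 0.062 for its 2 probes. SDHD read 13.90, 14.46, 13.66 and 13.92 in vitrified pools 1 to 4, against 14.03, 14.14, 13.37 and 14.31 in slow-frozen pools 1 to 4. The pools of both groups were spread over the same range, and slow-frozen pool 3 was the lowest. The brightest SDHD probe gave 0.022 ± 0.21 and the dimmer one -0.27 ± 0.14 (unadjusted p = 0.0836), so its probes had opposite signs.

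Complex III had a median difference of 0.17, with positive values for 6 of 8 genes. This median was 0.091 within the Cy5 pools and 0.094 within the Cy3 pools, and 0.077 without slow-frozen pool 2. UQCRB, a small subunit next to the ubiquinone site, was the only gene of the complex with an unadjusted p under 0.05. It read 14.00, 14.39, 14.29 and 13.87 in vitrified pools 1 to 4, against 14.22, 13.82, 13.53 and 13.25 in slow-frozen pools 1 to 4. Slow-frozen pool 1 overlapped the vitrified pools, while the other 3 slow-frozen pools were below all of them. The means were 14.14 ± 0.24 in vitrified pools and 13.70 ± 0.41 in slow-frozen pools (SD, n = 4 each), a difference of 0.43 ± 0.18, or 1.35-fold (unadjusted p = 0.0392, adjusted p = 0.996). The difference was 0.18 within the Cy5 pools and 0.69 within the Cy3 pools. Leaving out 1 pool gave 0.30 to 0.56, and the unadjusted p was above 0.05 without any of slow-frozen pools 2, 3 and 4 or vitrified pools 2, 3 and 4.

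UQCR10, a small subunit beside cytochrome c1, was nearly the same in all vitrified pools. It read 13.51, 13.52, 13.51 and 13.54 in vitrified pools 1 to 4, against 13.49, 13.41, 13.14 and 12.64 in slow-frozen pools 1 to 4. All vitrified pools were above all slow-frozen ones, if narrowly above pool 1, and the slow-frozen spread came mainly from pools 3 and 4. The difference was 0.35 ± 0.17 (unadjusted p = 0.0651, adjusted p = 1.00). It was 0.063 within the Cy5 pools and 0.63 within the Cy3 pools, and 0.19 without slow-frozen pool 4. Among the member genes the groups failed to overlap for UQCR10 and COX5B, in both with the vitrified pools above. This was 2 of 41, against 1.6% of all genes with vitrified pools above and 1.22% with them below, 2.82% in all.

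UQCRC2, one of the core proteins, which are related to mitochondrial processing peptidases, had a difference of 0.34 ± 0.22 (unadjusted p = 0.155). It read 13.20, 13.55, 13.20 and 13.78 in vitrified pools 1 to 4, against 13.18, 12.34, 13.57 and 13.27 in slow-frozen pools 1 to 4. Slow-frozen pool 2 was well below the other slow-frozen pools, and without it the difference was 0.12. The difference was 0.22 without vitrified pool 2, 0.62 within the Cy5 pools and 0.074 within the Cy3 pools. Its partner UQCRC1 had differences of 0.064 and 0.0011 for its 2 probes. UQCRQ, a small subunit near cytochrome b, had a difference of 0.22 ± 0.16. It was 0.097 without vitrified pool 3 and 0.15 without slow-frozen pool 4, with 0.061 within the Cy5 pools and 0.38 within the Cy3 pools. UQCRH, the acidic hinge protein that helps cytochrome c dock, had 0.12 ± 0.15. CYC1, cytochrome c1, gave -0.093 with the brightest and 0.046 with the dimmer probe. UQCR had the lowest value of the complex, -0.30 ± 0.22, with an interval of -0.80 to 0.19.

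Complex IV was the most divided, with 7 positive and 6 negative values among 13 genes and a median of 0.036. This median was 0.072 within the Cy5 pools, 0.17 within the Cy3 pools and -0.091 without slow-frozen pool 4, and it was near 0 without vitrified pool 3 (-6.4e-06) or vitrified pool 4 (0.00066). The gene with the largest difference of all members was COX7A2, the form of subunit VIIa found in most tissues. Its brightest probe, EMBV3_11360, read 15.19, 15.28, 15.51 and 14.77 in vitrified pools 1 to 4, against 14.96, 14.95, 14.31 and 14.49 in slow-frozen pools 1 to 4. Vitrified pools 1, 2 and 3 were above all slow-frozen pools, and vitrified pool 4 was below slow-frozen pools 1 and 2. The means were 15.19 ± 0.31 in vitrified pools and 14.68 ± 0.33 in slow-frozen pools (SD, n = 4 each), a difference of 0.51 ± 0.18, or 1.42-fold (unadjusted p = 0.0182, adjusted p = 0.940).

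The second COX7A2 probe, EMBV3_42215, read 12.96, 13.17, 13.14 and 12.69 in vitrified pools 1 to 4, against 12.56, 12.65, 12.53 and 11.99 in slow-frozen pools 1 to 4. Here the groups did not overlap, as for 3 of the 65 member probes, all with vitrified pools above. Of all probes 1.49% had the vitrified pools above and 0.982% below, 2.47% in all. The difference was 0.56 ± 0.17 (unadjusted p = 0.00745, adjusted p = 0.864). Both probes thus gave values of similar size, though they read the same RNA and are no replicates. With the brightest probe the difference was 0.28 within the Cy5 pools and 0.74 within the Cy3 pools. It was 0.31 without vitrified pool 3 and 0.61 without vitrified pool 4, and the unadjusted p was above 0.05 without slow-frozen pool 3. COX7A2L, which joins complex IV to complex III in supercomplexes, had positive values with all 3 of its probes, 0.080, 0.24 and 0.14. The first of these turned to -0.13 within the Cy5 pools.

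**Figure D2:**
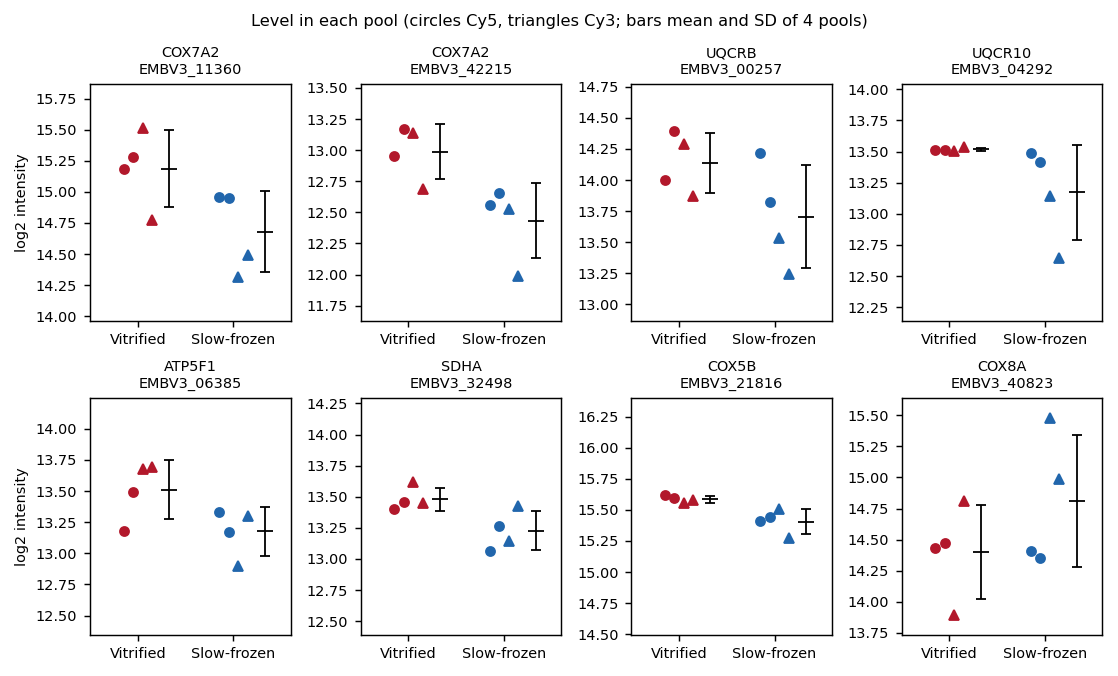
Normalised log2 intensity in each pool for 8 probes of 7 genes, vitrified pools on the left of each panel and slow-frozen pools on the right; circles are Cy5 and triangles Cy3 pools, and bars give the mean and SD of 4 pools. All panels span the same number of log2 units but start at different levels; the groups do not overlap for the second COX7A2 probe, UQCR10 and COX5B.

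COX5B, a zinc-binding subunit on the matrix side, read 15.62, 15.60, 15.55 and 15.58 in vitrified pools 1 to 4, against 15.41, 15.44, 15.50 and 15.27 in slow-frozen pools 1 to 4. All vitrified pools were above all slow-frozen pools, by a small margin. Its difference was 0.18 ± 0.13 (unadjusted p = 0.186, adjusted p = 1.00). The COX5B difference was 0.056 with Aquantile scaling and 0.074 with the deposited table of log2 ratios. COX5A, a subunit on the same side, had the opposite sign with its brightest probe, -0.23 ± 0.16. It read 15.63, 15.60, 14.97 and 15.44 in vitrified pools 1 to 4, against 15.60, 15.59, 15.74 and 15.63 in slow-frozen pools 1 to 4. Slow-frozen pools lay close together, while vitrified pool 3 was well below the rest, and without it the difference was -0.083. The difference was 0.026 within the Cy5 pools and -0.48 within the Cy3 pools. The other 3 COX5A probes gave 0.20, 0.034 and 0.12, and the mean over all 4 was 0.032.

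COX8A, a short subunit that crosses the membrane and is expressed in most tissues, had the lowest difference of all members, -0.41 ± 0.25 (unadjusted p = 0.130, adjusted p = 1.00). It read 14.43, 14.47, 13.89 and 14.81 in vitrified pools 1 to 4, against 14.41, 14.36, 15.48 and 14.99 in slow-frozen pools 1 to 4. Slow-frozen pools 3 and 4 were the highest, and slow-frozen pools 1 and 2 lay among the vitrified pools. The difference was 0.072 within the Cy5 pools, of the other sign, and -0.88 within the Cy3 pools. It was -0.13 without vitrified pool 3 and -0.21 without slow-frozen pool 3. COX8B, the heart and skeletal muscle counterpart, was above the negative controls in all 8 pools, unlike the muscle forms of subunits VIa and VIIa. It read 10.78, 10.84, 10.72 and 11.54 in vitrified pools 1 to 4, against 10.63, 10.64, 11.77 and 11.06 in slow-frozen pools 1 to 4. Vitrified pool 4 and slow-frozen pool 3, both labelled with Cy3, stood above the rest of their groups. The fitted dye term of COX8B, Cy5 minus Cy3, was -0.55 (limma, unadjusted p = 0.0278). Such a term had an unadjusted p under 0.05 in 3 of 41 member genes (COX7B, COX8B and ATP5G2), against 835 of 11728 genes. After adjustment 0 member genes passed for dye. The COX8B difference between the groups was -0.052 ± 0.22, and it was 0.092 with median centring.

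Of the other pair of forms, COX6A1, the form of most tissues, had 3 probes with differences of 0.23, -0.023 and 0.11. Its brightest probe read 15.16, 15.20, 15.37 and 15.15 in vitrified pools 1 to 4, against 14.90, 15.27, 15.61 and 14.18 in slow-frozen pools 1 to 4. Slow-frozen pool 4 was the lowest by far, and without it the difference was -0.086. The difference was 0.49 without slow-frozen pool 3, 0.092 within the Cy5 pools and 0.36 within the Cy3 pools. COX6B1 binds at the intermembrane side of the complex, and its difference was 0.036 ± 0.16. It was -0.022 with Aquantile scaling, which equalises across files only the distribution of the average of both channels. COX6B2, the testis form of that subunit, was above the negative controls in 7 of 8 pools. It averaged 7.89 ± 0.16 in vitrified pools and 7.92 ± 0.52 in slow-frozen pools, a difference of -0.028 ± 0.23 that was 0.082 with median centring.

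The other complex IV genes were COX4, COX6C, COX7B and COX7C. COX4, the subunit through which ATP inhibits the oxidase, had a difference of -0.10 ± 0.22 and one of 0.023 with median centring. COX6C gave 0.22 ± 0.17 and COX7C 0.27 ± 0.21. COX7B, which is needed for assembly of the complex, gave -0.21 ± 0.17, and it was -0.051 without slow-frozen pool 3, -0.12 without vitrified pool 4 and -0.32 without slow-frozen pool 4. None of the 4 had an unadjusted p under 0.05.

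Complex V had 13 positive and 3 negative values and a median difference of 0.14, with 0 of 16 genes at an unadjusted p under 0.05. The median was -0.0080 within the Cy5 pools and 0.32 within the Cy3 pools, and 0.050 without slow-frozen pool 4. The 5 genes of the F1 part, where ATP is made, had a median of 0.10. ATP5B, the catalytic beta subunit, gave 0.10 ± 0.16, and ATP5C1, the gamma subunit of the turning shaft, gave 0.10, 0.12 and 0.0060 with its 3 probes. ATP5A1, the alpha subunit, read 15.51, 15.66, 15.63 and 15.25 in vitrified pools 1 to 4, against 15.64, 15.59, 14.42 and 15.74 in slow-frozen pools 1 to 4. Slow-frozen pool 3 was more than a log2 unit below every other slow-frozen pool, and the difference over all pools was 0.17 ± 0.25.

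ATP5D and ATP5E, the delta and epsilon subunits at the foot of the shaft, had values of opposite sign. ATP5E read 14.21, 14.32, 14.64 and 14.51 in vitrified pools 1 to 4, against 14.31, 14.19, 14.14 and 13.93 in slow-frozen pools 1 to 4. Vitrified pools 3 and 4 were the highest and slow-frozen pool 4 the lowest, with overlap in between. Its difference was 0.28 ± 0.15 (unadjusted p = 0.0982, adjusted p = 1.00). It was 0.012 within the Cy5 pools and 0.54 within the Cy3 pools, and 0.18 without slow-frozen pool 4. ATP5D gave -0.18 ± 0.20, the lowest value of the complex.

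The peripheral stalk, which keeps the catalytic head from turning with the shaft, had positive values for all 4 genes and a median of 0.25. ATP5F1, subunit b of the stalk, had the smallest p of the complex. It read 13.18, 13.49, 13.68 and 13.69 in vitrified pools 1 to 4, against 13.34, 13.17, 12.90 and 13.30 in slow-frozen pools 1 to 4. Vitrified pools 2, 3 and 4 were above all slow-frozen pools, and vitrified pool 1 was among them. The difference was 0.33 ± 0.17 (unadjusted p = 0.0692, adjusted p = 1.00), and its second probe gave 0.015. With the brightest probe it was 0.082 within the Cy5 pools and 0.59 within the Cy3 pools, and 0.20 without slow-frozen pool 3. ATP5H, subunit d, gave 0.26 and 0.16 with its 2 probes, and the first was 0.097 within the Cy5 pools, 0.42 within the Cy3 pools and 0.40 without slow-frozen pool 1. ATP5O, which joins the stalk to the head, gave 0.24 ± 0.18, and ATP5J, coupling factor 6, gave 0.0096 ± 0.16.

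ATP5G1, ATP5G2 and ATP5G3 encode the same mature c subunit of the turning ring with different import sequences. The 3 probes of ATP5G1 gave 0.034, 0.10 and 0.087. ATP5G3 gave 0.17 ± 0.17, with 0.046 within the Cy5 pools and 0.29 within the Cy3 pools. With 1 pool left out its value was 0.035 (without slow-frozen pool 4) to 0.27 (without vitrified pool 2). ATP5G2 gave -0.051 ± 0.21, or 0.091 with median centring. It read 12.65, 12.07, 12.73 and 13.05 in vitrified pools 1 to 4, against 12.61, 11.89, 13.34 and 12.86 in slow-frozen pools 1 to 4. In both groups pool 2 was the lowest, and the fitted dye term of ATP5G2, Cy5 minus Cy3, was -0.69. The 3 forms share coding sequence, and binding of one form's RNA to a probe of another was not examined.

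Of the small membrane subunits, ATP5J2 (subunit f) gave 0.30, 0.49 and 0.19 with its 3 probes. The second of these had an unadjusted p of 0.0576 and the highest interval bound among all member probes, 0.993. It read 13.77, 13.55, 13.90 and 13.43 in vitrified pools 1 to 4, against 13.66, 13.47, 13.20 and 12.37 in slow-frozen pools 1 to 4. Slow-frozen pool 4 was well below the other slow-frozen pools in this probe and in the brightest one. ATP5I and ATP5L, subunits e and g, which hold ATP synthase dimers together, gave 0.27 ± 0.18 and -0.10 ± 0.14. ATP5S gave 0.12, 0.0023 and 0.28, and vitrified pool 3 was the highest pool in all 3 probes.

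**Figure D3:**
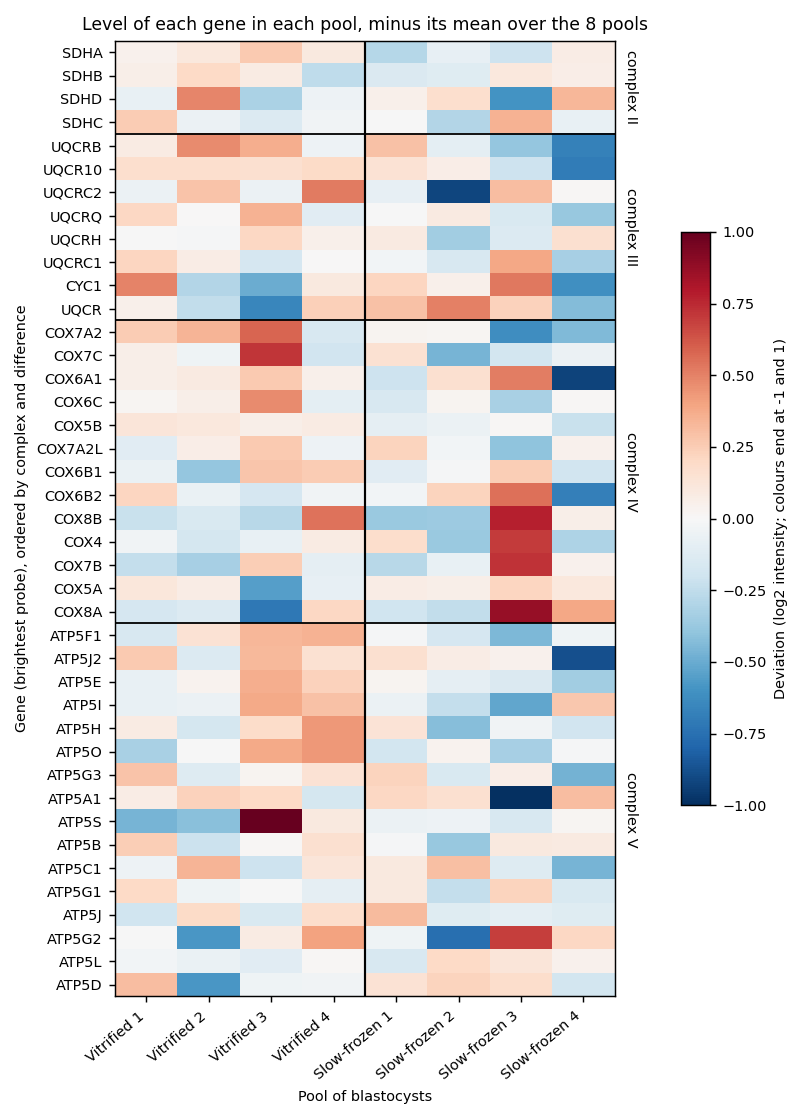
Deviation of each gene from its own mean over the 8 pools (log2 intensity, colour scale from -1 to 1), with vitrified pools in the left 4 columns and slow-frozen pools in the right 4, and genes grouped by complex. Slow-frozen pool 4 holds the lowest value for 5 of 8 complex III genes, and slow-frozen pool 3 the highest for 7 of 13 complex IV genes.

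Which pools were high or low differed from gene to gene. The median deviation of the 41 genes from their own means was 0.051, -0.014, 0.084 and 0.083 in vitrified pools 1 to 4, against -0.0022, -0.073, 0.041 and -0.072 in slow-frozen pools 1 to 4. Slow-frozen pools 2 and 4 were the lowest. Slow-frozen pool 4 held the lowest value of 12 genes, slow-frozen pool 2 of 9 and slow-frozen pool 3 of 8. The highest values fell mostly in vitrified pool 3 and slow-frozen pool 3, with 12 genes each. Complex III had its lowest median, -0.40, in slow-frozen pool 4. Complex IV had medians of 0.25 in vitrified pool 3 and 0.24 in slow-frozen pool 3.

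**Figure D4:**
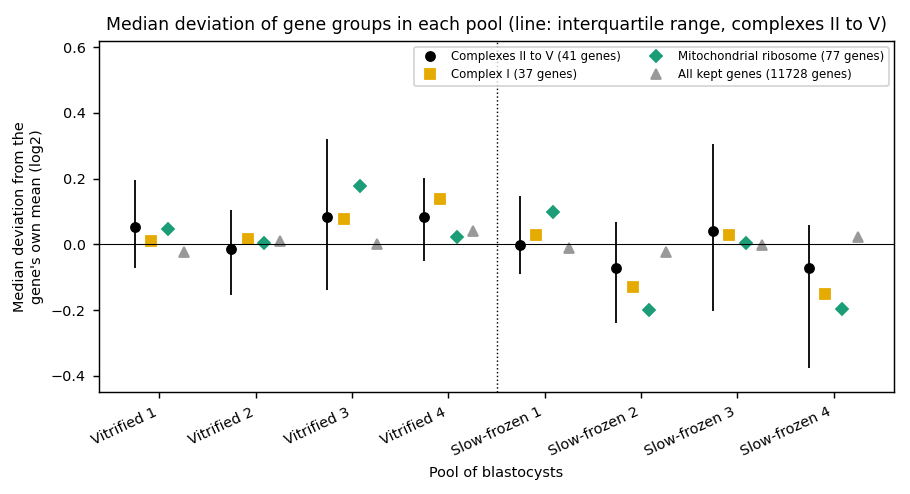
Median deviation from each gene's own mean (log2, vertical axis) in the 8 pools, vitrified on the left and slow-frozen on the right, for 4 groups of genes; vertical lines span the interquartile range of the 41 genes. Complexes II to V, complex I and the mitochondrial ribosome all have their lowest medians in slow-frozen pools 2 and 4, while the medians of all kept genes stay between -0.024 and 0.042.

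Probes of the same gene could be compared for 16 genes. In 11 all kept probes had a positive value, and in 5 (SDHA, SDHD, CYC1, COX5A and COX6A1) the signs differed. Some of the 11 held a value near 0, such as 0.0011 for UQCRC1. The mean correlation between a gene's probes over the pools ran from -0.54 for SDHA to 0.89 for ATP5J2. It was -0.42 for CYC1 and -0.50 for ATP5F1, whose probes were both positive. The probes of a gene were nowhere more than 0.5 apart. Using the mean of a gene's probes gave a median of 0.11 over the 41 genes, against 0.10 with the brightest probe.

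The other nuclear genes of the same organelle gave similar counts. Of 37 measured complex I genes, 26 had positive values (median 0.15), and 2, NDUFB3 and NDUFS6, had a higher value at an unadjusted p under 0.05, with 0 lower. NDUFA4, now counted as a complex IV subunit, stood in the complex I list by its name. Of 77 mitochondrial ribosomal proteins, which make the subunits encoded in mitochondrial DNA, 63 had positive values (median 0.12) and 0 had an unadjusted p under 0.05. In pools 1 to 4 the medians of the complex I genes were 0.010, 0.016, 0.077 and 0.14 for vitrified embryos, against 0.028, -0.13, 0.030 and -0.15 for slow-frozen ones. Whether the 3 groups differ from each other was not tested.

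Lists of genes that serve the complexes without being part of them were set beside the members, with no test of a difference. Among assembly factors, such as SURF1 and SCO2 of complex IV, 26 genes of 37 listed names were measured, with 14 positive and 12 negative values. Their median was 0.0068. ATPIF1 and ATP5IF1 in that list name the same gene, which is no assembly factor but was counted there. Among regulators of mitochondrial genes, such as NRF1 and TFAM, 12 of 14 were measured, with 4 positive values and a median of -0.025. Carriers and channels of the mitochondrial membranes, such as SLC25A4, the exchanger of ADP and ATP, had 5 positive values of 8 and a median of 0.13. In these 3 lists 0 genes had an unadjusted p under 0.05. Of the tricarboxylic acid cycle, 11 of 13 genes were measured with a median of 0.012, and SUCLA2, a subunit of succinyl-CoA synthetase, had a difference of 0.45 ± 0.18 (unadjusted p = 0.0268, adjusted p = 0.952). Of the uncoupling proteins only UCP2 was measured, with a difference of 0.13.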

How the data were processed

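Pools of blastocysts from vitrified and slow-frozen morulae were analysed, 4 per group, and the labels gave group, replicate number and dye. Per the file headers, the intensity values in the scanner files are medians of spot and local background for each dye, not yet background-subtracted. Each of the 4 deposited files joins a vitrified and a slow-frozen channel, which by the methods lay on different slides. Whether both channels of a file came from the same array was not tested, though loess within files treated them so. By the methods the authors subtracted background, took log2 and applied lowess and quantile normalisation in FlexArray. The value table the authors deposited holds log2 ratios of Cy5 over Cy3. This was checked against the scanner values (r of at least 0.999996), and the table was used as an alternative.

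Here normexp (offset 50) was applied first, then loess within files, then quantile normalisation across all 8 channels. Kept probes had a raw signal over the 95th percentile of 153 negative control spots in at least 3 of 4 pools of a group. The 58 probes marked as ignored were left out. Levels are log2 normalised intensities, and a gene is represented by its brightest kept probe. The groups were tested in R 4.3.3 with limma 3.58.1 (two-sided, dye as a term), with p-values adjusted by Benjamini-Hochberg over 30034 probes. Intervals are 95% and unadjusted. The number of pools limits the precision.

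The members and lists were chosen with earlier results of these data known. Genes described with their values were those with the 3 smallest p in each complex, an unadjusted p under 0.05 or a 2-fold difference, the brightest probe of each complex, pairs of isoforms, and genes whose probes differed in sign. Values of other genes were added for completeness, and the pools of some were given after their values were seen. Current symbols came from the RefSeq gene table (ARS-UCD2.0). Alternatives changed the background correction, scaling, filter, dye term, block, pools used and probe summary.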

Additional observations from a re-analysis of the deposited data

Results flagged for a closer look

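Among 130 groups of 4 pools, one for each kept probe and treatment, 8 had a pool set far apart from the other 3 by Dixon's test at the 95% level. Chance gives this in about 1 of 20 groups. Values are log2 intensities. In slow-frozen pool 4 the dimmer SDHA probe EMBV3_03242 read 6.86, against 7.79 to 7.92 in the other slow-frozen pools. In the same pool COX6A1 (EMBV3_03749) read 14.04, with the others at 14.29 to 14.32. ATP5J2 (EMBV3_06291) read 13.07 there, with the others at 13.99 to 14.11. In slow-frozen pool 3 ATP5A1 read 14.42, against 15.59 to 15.74. In slow-frozen pool 1 ATP5J read 14.90, against 14.46 to 14.49. Vitrified pool 4 read 11.54 for COX8B, with the other vitrified pools at 10.72 to 10.84, and 9.83 for ATP5F1 (EMBV3_18806), with the others at 10.28 to 10.32. Vitrified pool 3 read 9.64 for ATP5S (EMBV3_16295), against 8.41 to 8.54.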

How the results depend on the processing

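Over all kept probes the count past the adjustment was 1. It was 0 with no background subtraction, with quantile normalisation without loess, with median centring only, with probes above the negative controls in all 8 pools, within the Cy5 or the Cy3 pools, with the deposited value table, and without both vitrified pool 3 and slow-frozen pool 2, which was added after seeing the data. Leaving out each pool gave 0 to 0. With the replicate number as a block this count was also 0. In that fit 2 member genes had an unadjusted p under 0.05, against 5.12% of all probes. The median could not change in it, since each number marks 1 pool of each group. By the methods each production cycle gave 1 tube per treatment, so pools of the 2 groups share cycles, but neither labels nor methods say that equal numbers mark the same cycle. Deviations of same-numbered pools correlated at -0.031 to 0.16 and 2 of 4 pools matched their own number best, and the block was kept as an alternative only.

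The 2 member genes with an unadjusted p under 0.05 (4.83% of all probes, 5.98% of all genes) became 0 with median centring (2.68% of all probes) and without both pools (4.42%). Shares of all genes were not computed for the other settings. The count was 1 without the dye term (4.55% of all probes) and 1 (UQCR, lower) within the Cy5 pools (6.72%). Within the Cy3 pools it was 6, 5 higher and COX8A lower (2.22% of all probes). It was also 6 where each deposited file was a random block (correlation 0.31), with 9.05% of all probes. With 1 pool left out the count was 0 to 5, with 2.91% to 5.97% of all probes. The median of 0.10 was 0.18 with median centring and 0.17 within the Cy3 pools. It was 0.061 with Aquantile scaling, 0.064 with the value table, and 0.057 to 0.17 with 1 pool left out. The causes were not tested.

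For 24 named genes, 334 of 359 values under the other settings kept their sign and 168 of 192 with 1 pool left out. Changes of the filter, dye term or block could not change a difference in this balanced design. Part of the 334 was thus fixed in advance and is no sign of stability. The values that turned were as follows. Within the Cy5 pools COX5A gave 0.026, COX6B1 -0.16, COX7A2L -0.13, COX8A 0.072, COX8B 0.18 and ATP5G2 0.11. Within the Cy3 pools SDHB gave -0.17, SDHD -0.050 and ATP5G1 -0.079. With median centring COX4 gave 0.023, COX6B2 0.082, COX8B 0.092 and ATP5G2 0.091. With Aquantile scaling after loess COX6B1 gave -0.022, COX6B2 0.0014 and ATP5G1 -0.066. The value table gave -0.015 for COX6B1 and -0.045 for ATP5G1. The mean over probes gave -0.13 for SDHD and 0.032 for COX5A. Without both pools SDHB gave -0.034, COX6B2 0.069, COX7A2L -0.063, COX8B 0.16 and ATP5G1 -0.073. With 1 pool left out the range was -0.025 to 0.15 for SDHB, -0.15 to 0.22 for SDHD, -0.28 to 0.12 for COX4, -0.086 to 0.49 for COX6A1, -0.091 to 0.14 for COX6B1, -0.27 to 0.22 for COX6B2, -0.050 to 0.17 for COX7A2L, -0.17 to 0.16 for COX8B, -0.057 to 0.13 for ATP5G1 and -0.23 to 0.077 for ATP5G2. All of these are values that did not pass the test.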
